A study of Mus musculus with 5 samples.

Results

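The cells described here are the 4T1 cancer cells recovered from mouse lung. 4T1 is a mouse mammary carcinoma line, and the injected cells carried CD90.1, a Thy1 variant, as a reporter. The members are all cells that the authors annotated as cancer cells in 5 single-cell RNA libraries, 249 of 22118 annotated cells (23852 cells before doublets and unknown cells were left out). Female BALB/c mice aged 6 weeks received 200 µL of tumor-secreted factors (TSF) or control medium (CM) intravenously, 3 times per week for 3 weeks. TSF is medium conditioned by pieces of resected 4T1 mammary tumors, pooled from 3 tumors, and CM is the same medium kept without tumor. All mice of the 5 libraries then received 25000 CD90.1-expressing 4T1 cells intravenously, and lungs were taken 11 days later (age 10 weeks by the labels) or 16 days later (age 11 weeks). Each library pooled cells of 3 mice. TSF of day 11 had 2 libraries, called a and b, and the other groups (CM of day 11, CM of day 16, TSF of day 16) had 1 each. The labels do not say whether a and b came from separate pools of mice, so they were counted as 1 sample, given by their mean. The proportions of their cell classes agreed within sampling noise (chi-square test over cells, p = 0.445), which does not show that they are the same sample. Every group therefore had 1 sample. Without replicates no difference between groups was tested, and all intervals cover counting error only. An intravenous injection delivers cells to the lung directly, so the model holds the later steps of metastasis without escape from a primary tumor.

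Cancer cells that reach the lung must survive among resident and recruited cells, and most are lost before they form a colony. Interferons from neighbouring immune cells induce guanylate-binding proteins, immunity-related GTPases and the machinery that presents antigen on MHC class I. Carcinoma cells are recognised by keratins and by epithelial adhesion molecules such as EPCAM, although 4T1 cells also express mesenchymal genes such as vimentin.

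Markers of the annotated cells were examined at day 16, the only day for which expression values were used here. Marker values of the other lung cell types were not compared, so they do not set these cells apart from lung epithelium. Krt8, a simple-epithelium keratin, was seen in all 29 cancer cells of the CM library and in 137 of 139 cells of the TSF library. Its partner Krt18 was seen in 28 and 138 cells, and Wfdc2, a secreted protease-inhibitor-like protein of carcinomas, in 28 and 139 cells. Keratin means were close, at 10.3 CP10k in CM and 11.1 CP10k in TSF for Krt8 (CP10k is UMIs per 10000 UMIs of a cell, given here as the authors' mean over cells). The surface marker Epcam was seen in 8 of 29 CM cells (27.6%, 95% interval 12.7 to 47.2%) and in 95 of 139 TSF cells (68.3%, interval 59.9 to 76.0%). Its mean was 0.195 CP10k in CM and 1.28 CP10k in TSF. The reporter CD90.1 was seen in 2 CM cells and 48 TSF cells, so most cancer cells of either library held no UMI of it. CD90.1 served the authors to find the clusters of cancer cells, so it is no independent check. Both markers that name these cells by their surface were thus sparse in CM, whereas the keratins were not.

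Endogenous Thy1 differed in the same direction as its reporter variant. It was seen in 10 of 29 CM cells (interval 17.9 to 54.3%) and 106 of 139 TSF cells (76.3%, interval 68.3 to 83.1%). CD90.1 and Thy1 are alleles of 1 gene, so the authors' counting could divide reads between them. Their means summed to 0.297 CP10k in CM and 1.36 CP10k in TSF. The UMIs of CD90.1 in the CM library could be placed in single cells by a method given below. The deepest CM cell (51807 UMIs) held 4 of them and the next deepest (45132 UMIs) held 1.

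The share of cancer cells was followed over time in each arm. In the CM arm it was 0.161% at day 11 (6 of 3738 cells, interval 0.0589 to 0.349%) and 0.813% at day 16 (29 of 3567 cells), a ratio of 5.07 (interval 2.07 to 14.9). In the TSF arm the mean of libraries a and b at day 11 was 0.760%, and the share at day 16 was 2.84% (139 of 4896 cells), a ratio of 3.73 (interval 2.81 to 5.04). At matched days TSF exceeded CM by 4.74-fold at day 11 and 3.49-fold at day 16, with intervals of 2.07 to 13.2 and 2.33 to 5.41. All 4 intervals lay above 1, and those of the 2 arms overlapped widely, because the CM arm started from 6 cells. The TSF share of day 11 (0.626% in library a and 0.895% in library b) was close to the CM share of day 16, with overlapping intervals. Cells recovered by dissociation were counted, and losses of cancer cells during dissociation cannot be told apart from differences in the lung.

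Cancer cells carried far more RNA molecules per cell than the rest of the lung, which makes their part of the sequenced material larger than their part of the cells. They took 1.20% of the UMIs of annotated cells in CM at day 11 and 5.51% in CM at day 16. In TSF they took 6.51% and 8.80% at day 11 (a and b) and 20.1% at day 16. Their median UMI count was between 9.34-fold and 14.8-fold the median of the other annotated cells of the same library. Club cells, a secretory type of the airway, had medians between 7447 and 22351 UMIs, below the cancer cells of the same library in all 5 libraries. Of the 126 cells with at least 20000 UMIs in the TSF library of day 16, 104 were cancer cells, and in CM of day 16 they were 18 of 30 such cells.

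**Figure D1:**
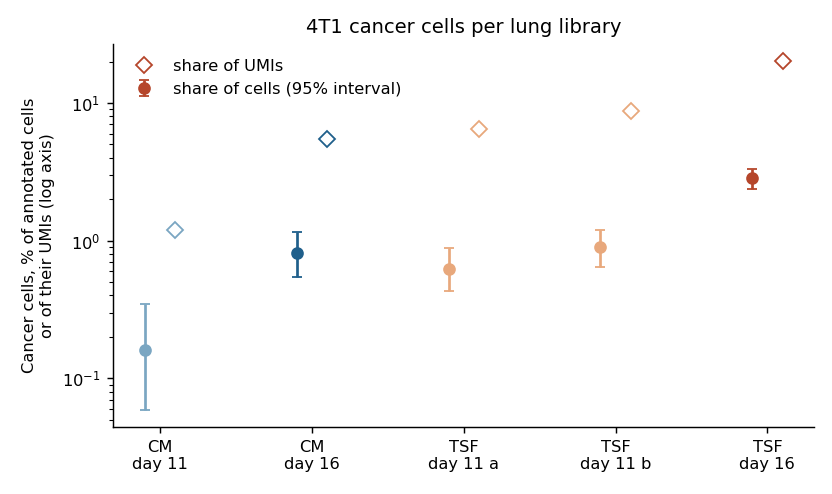
Cancer cells in each of the 5 lung libraries, as a percentage of annotated cells (filled circles, bars are 95% Clopper-Pearson intervals for counting error) and of the UMIs of those cells (open diamonds), on a log axis. The share of cells goes from 0.161% in CM at day 11 to 2.84% in TSF at day 16, and the share of UMIs from 1.20% to 20.1%.

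The depth of single cancer cells varied within every library more than between libraries. At day 11 the 6 CM cells had 7324 to 38633 UMIs with a median of 20760. The TSF cells of day 11 ranged from 1971 to 55795 UMIs in library a (median 31050) and from 1635 to 61587 in library b (median 30698). At day 16 the CM cells ranged from 973 to 51807 UMIs (median 27679) and the TSF cells from 909 to 69674 UMIs (median 26615). The ranges of all libraries overlapped. TSF was higher than CM by median at day 11 and lower at day 16. Cells under 10000 UMIs made up 8 of 29 CM cells of day 16 (27.6%, interval 12.7 to 47.2%) and 14 of 139 TSF cells (10.1%, interval 5.62 to 16.3%). The 8 shallow CM cells held 8.14% of the library's cancer cell UMIs, and the 14 shallow TSF cells 1.62%. A mean of CP10k gives each cell the same weight, so those cells weigh far more in it than in the UMIs.

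At matched depth from 20000 UMIs the cancer cells of day 16 held more genes by median than those of day 11. Among cells with 30000 to 40000 UMIs, the median number of genes at day 11 was 4987 in CM (2 cells), 4832 in TSF library a (6 cells) and 5039 in library b (11 cells). At day 16 it was 5693 in CM (12 cells) and 5425.5 in TSF (32 cells), at median depths between 34502 and 35950.5 UMIs in all 5 libraries. The same order of days was found from 40000 to 50000 UMIs, with medians of 5336.5 and 5149 genes in the TSF libraries of day 11 (8 cells each), 6019 genes in TSF of day 16 (16 cells) and 6501 genes in the single CM cell of that range at day 16. In both ranges the lowest and highest cells of the TSF libraries of the 2 days overlapped. Between 20000 and 30000 UMIs, TSF of day 16 had 4544 genes (46 cells) and TSF of day 11 had 4390 and 4419.5 genes (12 cells each), a smaller gap, and the 4 CM cells of day 16 had 5327.5. Within day 16 the CM median was above the TSF median in each of these 3 ranges. Day and library cannot be told apart here.

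**Figure D2:**
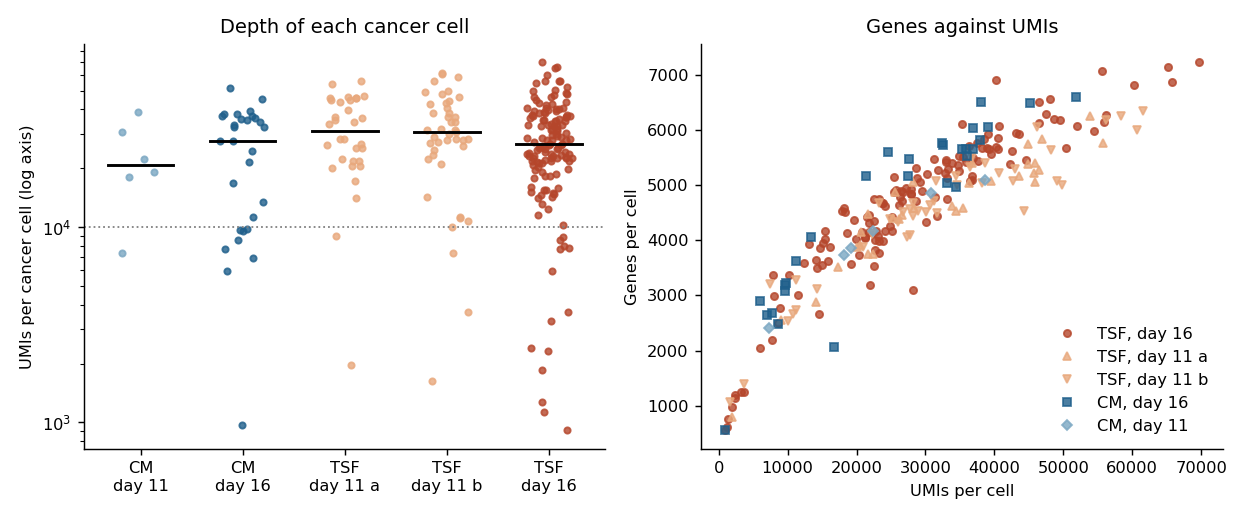
Left, UMIs of each of the 249 cancer cells by library on a log axis, with the library's median as a bar and the limit of 10000 UMIs as a dotted line. Right, genes against UMIs for the same cells. Medians lie between 20760 and 31050 UMIs, and cells of day 16 lie above most cells of day 11 at depths over 30000 UMIs.

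Mitochondrial transcripts made up a small part of the RNA of these cells. Median percentages were 1.91% in CM and 1.75% and 1.80% in TSF (a and b) at day 11, and 1.72% in CM and 1.99% in TSF at day 16. The other annotated cells of the same libraries had medians between 2.20% and 2.51%, so the cancer cells were lower in every library. Above 4% lay 5 of 29 CM cells (17.2%, interval 5.85 to 35.8%) and 14 of 139 TSF cells (10.1%, interval 5.62 to 16.3%) of day 16, with overlapping intervals. A complete absence of mitochondrial UMIs was seen in 9 cancer cells, 5 of them in TSF at day 16, where the median depth of those 5 cells was 1272 UMIs. Not all of the 9 were shallow. They included a TSF cell of day 16 with 28219 UMIs, a cell of library b with 10743 UMIs and a CM cell of day 16 with 8559 UMIs.

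The authors' fine clustering placed the cancer cells in 2 clusters that held no other cell type. The first held 136 cells (median 25458 UMIs) and the second 113 cells (median 33174 UMIs). In CM of day 16 they held 6 and 23 cells, in TSF of day 16 they held 85 and 54 cells, in library a 17 and 15, in library b 24 and 19, and in CM of day 11 4 and 2. CM of day 16 was the only library with most of its cancer cells in the second cluster. The clusters were built on highly variable genes, some of which differed between the day 16 libraries, so this split is given as a description. Of 306 kept variable genes, 26 were past 1.5-fold higher in TSF and 49 lower. Over all genes kept in the comparison below, 0.755% were higher and 1.95% lower. No cancer cell shared its barcode with a cancer cell of another library, and 5 had a barcode that named another cell type in another library.

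Expression was compared between the 29 CM and 139 TSF cancer cells of day 16. Of 23771 genes, 14735 had a UMI in a cancer cell of either library and 10201 reached 10% of cancer cells in CM, in TSF or in both. Among these, 77 genes (0.755%) were past 1.5-fold higher in TSF and 199 genes (1.95%) past 1.5-fold lower, on the log2 ratio of mean CP10k + 1 that is used for all log2 ratios below. This scale understates differences of genes with low means. The median log2 ratio of these genes was -0.03. These are counts of genes past a size and not of tested changes. A second measure was the share of cells with a UMI, with a bound for shallow cells. For each gene, the UMI-holding cells were assigned to the cells under 10000 UMIs in the way least favourable to the difference, and the shares among the 21 CM and 125 TSF cells above that depth were compared. By this bound 595 genes (5.83%) had a higher share in TSF and 381 genes (3.73%) a higher share in CM. The deep cells themselves were not thinned to equal depth, and their median was 34417 UMIs in CM and 28613 UMIs in TSF. The part of this depth difference in the shares that were higher in CM was not tested. The bound carries no counting error. The share of cells with a UMI in a cell type that lacks the gene was not analysed here. Counts had been corrected for ambient RNA by the authors.

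Interferon-induced genes had the lowest median of the 10 lists of cancer cell genes. All 23 listed members were kept, 18 were past 1.5-fold lower in TSF, none was higher, and the median log2 ratio was -1.20. The share of cells was higher in CM by the bound for 12 of them and higher in TSF for none. Over all kept genes, 1.95% were past 1.5-fold lower and 3.73% had a higher share in CM by the bound. Irf1, a factor induced by interferon gamma, had 6.64 CP10k in CM and 1.39 CP10k in TSF (log2 ratio -1.68). Among the named genes, Atf3 had the lowest log2 ratio (-2.31) and is not on this list. In the share of cells with a UMI, the 2 libraries differed most in the GTPases that interferon induces.

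The upstream sequences of some of these genes are shown because the difference falls on genes known for interferon response elements. They come from the RefSeq promoter windows of GRCm38.p6 around the annotated start, in lower case 5′ to 3′ on the gene's strand. Capitals mark 2 copies of GAAA with 2 bases between (an interferon response element, on either strand) and, for Irf1, TTC and GAA with 3 bases between (an interferon gamma activated site).
Gbp2, chr3:142620574-142620643, plus strand: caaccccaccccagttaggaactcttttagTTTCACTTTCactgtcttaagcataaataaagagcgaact
Igtp, chr11:58199492-58199555, plus strand: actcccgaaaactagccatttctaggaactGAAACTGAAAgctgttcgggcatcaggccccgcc
Irgm1, chr11:48871421-48871480, minus strand: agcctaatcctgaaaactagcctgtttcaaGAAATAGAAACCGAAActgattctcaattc
B2m, chr2:122147518-122147587, plus strand: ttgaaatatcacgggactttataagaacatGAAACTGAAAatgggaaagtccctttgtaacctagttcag
Irf1, chr11:53769894-53769962, plus strand: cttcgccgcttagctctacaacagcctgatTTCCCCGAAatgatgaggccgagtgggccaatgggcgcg
The Igtp match ended 24 bases before the annotated start and the Irgm1 match 14 bases before it, with 2 overlapping copies in Irgm1. Of the 23 listed genes 19 had a promoter in the table, and 11 of these (57.9%) held the first motif in the window, against 3.99% of all 27025 genes with a promoter. The second motif was found for 5 of the 19 (26.3%) and for 9.55% of all genes. A match describes the letters and not a bound site. The list was made of genes known to be induced by interferon, so these percentages describe the list and not the libraries.

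Guanylate-binding proteins, which attack membranes of intracellular microbes, showed the largest contrasts in the share of cells. Gbp6 was seen in 22 of 29 CM cells (75.9%, interval 56.5 to 89.7%) and in 18 of 139 TSF cells (12.9%, interval 7.86 to 19.7%). Among cells from 10000 UMIs the smallest difference that the counts allow was 66.7% in CM against 14.4% in TSF. Gbp2, the member whose window is printed above, was seen in 27 CM and 90 TSF cells, with means of 7.68 CP10k and 1.02 CP10k. Gbp3 (log2 ratio -1.38), Gbp4 (-2.11) and Gbp7 (-1.37) were also past 1.5-fold lower. Gbp5, with a low mean, had a log2 ratio of -0.13 and a ratio of means of 0.591. These genes are paralogs of similar sequence, and reads could be divided among them.

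The immunity-related GTPases followed the same order. Igtp was seen in 23 of 29 CM cells (79.3%, interval 60.3 to 92.0%) and 42 of 139 TSF cells (30.2%, interval 22.7 to 38.6%), with means of 3.87 CP10k and 0.306 CP10k. Irgm2 was seen in 18 CM and 21 TSF cells, but its annotated span overlaps that of Igtp by 7974 bases on the same strand, so their UMIs are not separate evidence. Irgm1, whose gene lies apart, had a log2 ratio of -1.44. Iigp1 was seen in 20 CM and 23 TSF cells, with means of 3.18 CP10k and 0.241 CP10k.

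Genes for MHC class I presentation were lower in TSF by level. The heavy chains H2-K1 and H2-D1 had log2 ratios of -1.10 and -1.11, and their light chain B2m went from 26.0 CP10k in CM to 13.8 CP10k in TSF (log2 ratio -0.87), seen in all 29 CM cells and 138 TSF cells. The peptide transporter Tap1 had a log2 ratio of -1.20 and was seen in 79.3% of CM and 40.3% of TSF cells. The immunoproteasome subunits Psmb8 and Psmb9 had log2 ratios of -0.85 and -1.13, and Psmb9 was seen in 96.6% and 82.0% of cells. For Tap1 and Psmb9 the bound gave a higher share in CM. MHC class II genes, usually a mark of professional antigen-presenting cells, were also seen in these cancer cells. Cd74, the invariant chain, had 21.5 CP10k in CM (23 of 29 cells) and 4.23 CP10k in TSF (80 of 139 cells), and H2-Aa had 4.49 CP10k in CM (16 cells) and 0.562 CP10k in TSF (38 cells). Of the leukocyte lists, Cd74 was the only member past 1.5-fold lower. Cd74 was seen in most cells, while the other pan-leukocyte markers were seen in few. Ptprc, Cd52, Coro1a, Laptm5 and Cd53 were at 0 in all 29 CM cells and were seen in 4, 1, 9, 6 and 3 of 139 TSF cells.

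The members not past 1.5-fold on the + 1 scale included antiviral genes that respond to type I interferon. Ifit1 had a log2 ratio of -0.34, Ifit3 of -0.35 and Irf7 of -0.55, all below 0, and Isg15 was past the limit at -1.35. The means of Ifit1, Ifit3 and Irf7 were under 1 CP10k. Without the added 1 their ratios of means (TSF over CM) were 0.402, 0.298 and 0.324, so the scale kept them within the limit. Isg15, a ubiquitin-like modifier, was seen in similar shares of cells, 75.9% in CM (interval 56.5 to 89.7%) and 76.3% in TSF (interval 68.3 to 83.1%), so its difference lay in level. The chemokine Cxcl10 had a mean of 1.87 CP10k in CM (11 of 29 cells) and 0.259 CP10k in TSF (18 of 139 cells). In the authors' deposited Hallmark sets, the interferon gamma response had 34 of 164 kept genes past 1.5-fold lower and none higher, with a median log2 ratio of -0.24, and the interferon alpha response 17 of 91 lower and none higher (median -0.30), against 1.95% of all kept genes.

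**Figure D3:**
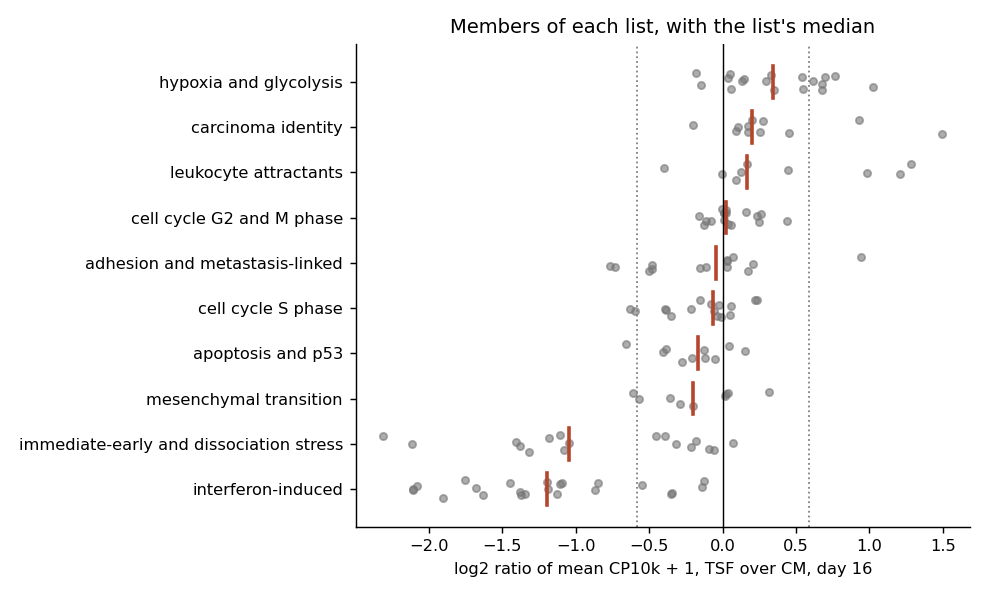
Log2 ratio of mean CP10k + 1 (TSF over CM, day 16) of each kept member of 10 gene lists (grey circles), with the list's median as a bar and 1.5-fold as dotted lines. The interferon-induced and immediate-early lists have medians of -1.20 and -1.05, and the hypoxia and glycolysis list the highest, at 0.34.

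Immediate-early and stress genes, which respond within minutes to growth signals and to tissue dissociation, were the second group lower in TSF. Of 17 kept members, 9 were past 1.5-fold lower and none higher, with a median log2 ratio of -1.05. The bound gave a higher share in CM for 8 members. Of all kept genes, 1.95% were past 1.5-fold lower and 3.73% had a higher share in CM by the bound. Atf3, a stress-induced repressor, was seen in 28 of 29 CM cells (96.6%) and 87 of 139 TSF cells (62.6%, interval 54.0 to 70.6%), with a log2 ratio of -2.31. The growth factor response gene Egr1 had 11.6 CP10k in CM and 1.92 CP10k in TSF. Jun went from 25.7 to 9.06 CP10k, seen in nearly all cells of both libraries, and the heat shock genes Hspa1b and Dnajb1 had log2 ratios of -1.38 and -1.97. Dnajb1 is not a member of the list. By level the list did not move as one, since Fos (log2 ratio -0.39), Jund (-0.09), Ier3 (-0.18), Dusp1 (-0.22), Klf4 (-0.06) and Btg2 (0.07) lay within 1.5-fold. Egr2 (-0.46) and Fosb (-0.32) also lay within it, with means under 1 CP10k, where the + 1 scale understates differences. Without the added 1 their ratios of means (TSF over CM) were 0.266 and 0.570. Of the members within 1.5-fold, Dusp1, Klf4 and Egr2 had a higher share in CM by the bound. Dusp1 was seen in 93.1% of CM and 67.6% of TSF cells, Klf4 in 69.0% and 50.4%, and Egr2 in 51.7% and 21.6%. For Klf4 the bound left only 57.1% in CM against 56.0% in TSF. The Klf4 intervals over all cells (49.2 to 84.7% and 41.8 to 58.9%) overlapped. For Fos, Fosb, Jund, Ier3 and Btg2 the bound did not fix the direction. The time from lung removal to capture was not given for each library, and the part of handling in this group was not tested. No day 11 expression was analysed here.

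Genes of hypoxia and glycolysis had the highest median of the 10 lists. Of 18 kept members, 16 had a log2 ratio above 0, against 40.3% of all kept genes, and the median was 0.34. Past 1.5-fold, 6 members were higher in TSF and none lower. The 6 higher members were the glycolytic enzymes Pgk1 (log2 ratio 1.03), Aldoa (0.70), Ldha (0.68) and Tpi1 (0.62) and the hypoxia-induced genes Bnip3 (0.76) and Ndrg1 (0.68). Pgk1 went from 1.67 CP10k in CM to 4.45 CP10k in TSF and was seen in 72.4% and 93.5% of cells. The bound for shallow cells did not fix the direction of that share (61.9 to 100% in CM, 92.8 to 100% in TSF). Car9, a carbonic anhydrase and a textbook hypoxia target, was seen in 6 of 29 CM cells (20.7%, interval 7.99 to 39.7%) and 79 of 139 TSF cells (56.8%, interval 48.2 to 65.2%), with a log2 ratio of 0.55. Other known hypoxia targets lay within 1.5-fold, with log2 ratios of 0.04 for Vegfa, -0.15 for Slc2a1, -0.18 for Hk2 and 0.05 for Adm. The Adm mean of CM came from 2 of 29 cells, which held 24 and 2 UMIs. The Hallmark hypoxia set, which is wider, had 8 of 147 kept genes higher and 9 lower past 1.5-fold, with a median log2 ratio of 0.04. These are 5.44% and 6.12% of its kept genes, against 0.755% and 1.95% of all kept genes.

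Upstream windows of 3 genes higher in TSF are printed because Pgk1 and Fam162a are hypoxia targets and Slpi had a large log2 ratio. Capitals mark ACGTG, the core of a hypoxia response element, on either strand.
Pgk1, chrX:106186920-106187003, plus strand: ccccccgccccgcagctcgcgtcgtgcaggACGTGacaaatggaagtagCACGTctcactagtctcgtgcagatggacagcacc
Fam162a, chr16:36071608-36071672, minus strand: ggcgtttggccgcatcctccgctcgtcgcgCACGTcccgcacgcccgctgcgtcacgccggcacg
Slpi, chr2:164356618-164356683, minus strand: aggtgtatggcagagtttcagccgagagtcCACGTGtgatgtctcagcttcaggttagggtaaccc
The Pgk1 window holds 2 copies, the nearer ending 126 bases before the start. The core was found for 13 of the 17 hypoxia and glycolysis genes with a promoter (76.5%), for 6 of 16 immediate-early genes (37.5%), for 1 of 19 interferon-induced genes (5.26%) and for 21.8% of all genes. The core is short and frequent, and a match is a description only. The hypoxia and interferon lists were made of known targets, so these percentages describe the lists and not the libraries.

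The single genes with the largest log2 ratios in TSF included 2 secreted proteins, a mitochondrial subunit and transcripts of a repeat locus. Slpi, a secreted inhibitor of leukocyte proteases, had 5.32 CP10k in CM (16 of 29 cells) and 24.6 CP10k in TSF (112 of 139 cells), a log2 ratio of 2.02. Wfdc2, of the same protein family, had 9.84 CP10k in CM and 29.6 CP10k in TSF (a ratio of means of 3.01), although nearly every cell of both libraries held a UMI. Gm26917 (log2 ratio 2.06), Gm42418 (1.44) and AY036118 (1.19) are annotated within a few kilobases on chromosome 17, the last overlapping Gm42418 by 923 bases on the other strand. They are known to collect ribosomal RNA reads, and are not described as separate genes. The mitochondrial complex I subunit Ndufb9 was at 1.72, Fam162a at 1.29, Csf3 at 1.28, the secreted Igfbp7 at 1.15 and the Mediator subunit Med24 at 1.04.

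By share of cells, the order of the genes was another one. Hotairm1, an antisense RNA of the HoxA cluster, was seen in 11 CM and 112 TSF cells, S100a13 in 13 and 120, and Nudt14 in 6 and 89. CAAA01147332.1 (10 and 113 cells) and Gm47283 (5 and 89 cells) had the largest differences towards TSF. In the other direction Mob3a, a kinase regulator, was seen in 21 of 29 CM cells (72.4%, interval 52.8 to 87.3%) and 36 of 139 TSF cells (25.9%, interval 18.8 to 34.0%), although its log2 ratio was only -0.35. For the 12 genes with the largest differences in share and for Epcam and CD90.1, the direction held by the bound for shallow cells. The smallest difference allowed among these 14 genes was 17.7 percentage points, for CD90.1.

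**Figure D4:**
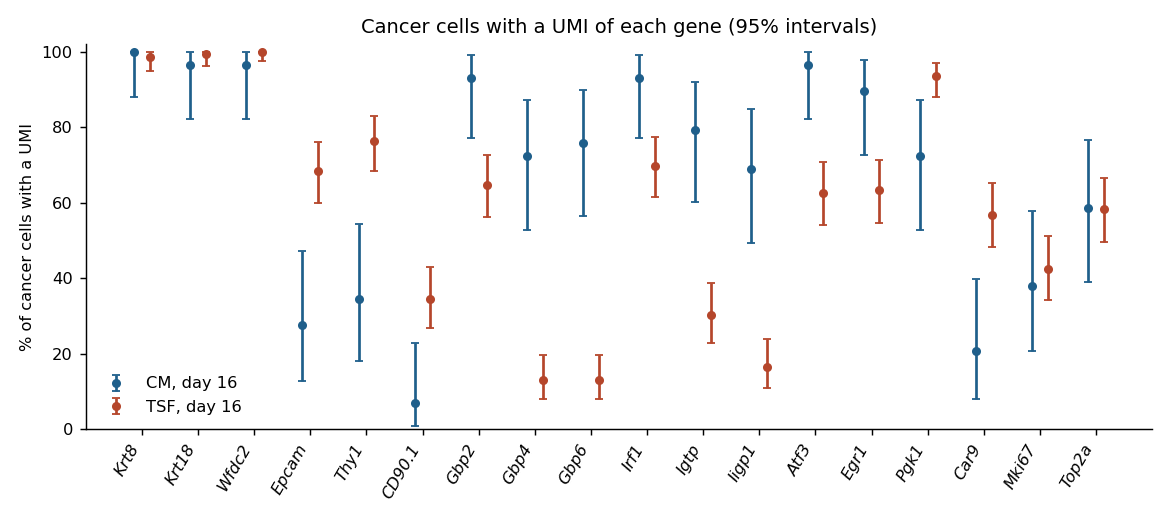
Percentage of cancer cells of day 16 with at least 1 UMI of 18 genes in CM (29 cells, blue) and TSF (139 cells, red), with 95% Clopper-Pearson intervals for counting error. Keratins are near 100% in both, Gbp4 and Gbp6 are over 70% in CM and 12.9% in TSF, and the intervals of Mki67 and Top2a overlap.

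Most epithelial genes had a higher mean in TSF. All 11 listed carcinoma identity genes, the reporter CD90.1 among them, were kept. Of these 10 had a log2 ratio above 0, against 40.3% of all kept genes. The median was 0.20, and 2 (Wfdc2 and Epcam) were past 1.5-fold higher, against 0.755% of all kept genes. Krt18 (log2 ratio -0.20) lay below 0. The tight junction gene Cldn3 was seen in 0 of 29 CM cells, which allows a share of cells with a UMI of up to 10.3% (3 counts) and sets no limit on expression, and in 32 TSF cells (23.0%, interval 16.3 to 30.9%). Cldn7 was seen in 31.0% of CM cells (interval 15.3 to 50.8%) and 53.2% of TSF cells (interval 44.6 to 61.7%), and E-cadherin (Cdh1) in 2 and 35 cells. The bound gave a higher share in TSF for 5 of the 11 genes, which were Epcam, Cldn3, Cldn7, Cdh1 and CD90.1. It did so for 5.83% of all kept genes. The mesenchymal list had a median log2 ratio of -0.20, with 4 of 9 kept members above 0, near the 40.3% of all kept genes. Of these 9, the matrix gene Fn1 was past 1.5-fold lower in TSF (20.1 CP10k in CM, 12.9 CP10k in TSF), the transcription factor Twist1 had a log2 ratio of 0.32 and was seen in 48.3% and 71.2% of cells, and Vim, Zeb1, Zeb2, Snai1, S100a4 and Sparc lay within 1.5-fold.

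Cell cycle genes of G2 and M phase showed no member past 1.5-fold among 17 on the + 1 scale, with a median log2 ratio of 0.02. Several of these genes had means under 1 CP10k in both libraries, where this scale understates differences. Without the added 1 the ratios of means (TSF over CM) were 3.8 for Cdc20, 2.66 for Ccnb1, 2.00 for Plk1 and 1.73 for Tpx2. In the other direction the lowest ratio of means was 0.737, for Aurkb. Mki67, a proliferation antigen, was seen in 11 of 29 CM cells (37.9%, interval 20.7 to 57.7%) and 59 of 139 TSF cells (42.4%, interval 34.1 to 51.1%), and Top2a in 58.6% and 58.3%. A difference in the share of cells with these transcripts was not detectable at this depth and number of cells. In S phase, the replicative helicase genes Mcm4 and Mcm6 were past 1.5-fold lower in TSF (log2 ratios -0.60 and -0.63), and the other 4 of Mcm2 to Mcm7 were below 0, whereas Pcna (0.05), Tyms (0.22) and Rrm2 (0.23) were above 0. Of 10 kept apoptosis and p53 genes, Gadd45a (-0.66) was past 1.5-fold lower and none was past 1.5-fold higher. Over all kept genes these shares were 1.95% and 0.755%. Cdkn1a (-0.41) was seen in 65.5% of CM and 32.4% of TSF cells. It was the only member of that list for which the bound gave a direction, a higher share in CM.

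Attractants of leukocytes were measured because neutrophils and monocytes accumulate around lung metastases. Of 9 kept genes, 3 were past 1.5-fold higher in TSF and none lower, against 0.755% and 1.95% of all kept genes. Csf3, which encodes the granulocyte growth factor G-CSF, had 1.63 CP10k in CM (16 of 29 cells) and 5.39 CP10k in TSF (99 of 139 cells), and the intervals of these shares (35.7 to 73.6% and 62.9 to 78.6%) overlapped. Cxcl2 had 0.182 CP10k in CM (5 cells) and 1.73 CP10k in TSF (34 cells), at 17.2% and 24.5% of cells, so a minority of cells carried it in both. Cxcl5, another ligand of the neutrophil receptor CXCR2, was seen in 1 CM cell and 23 TSF cells. The cytokine Mif went from 11.8 to 24.3 CP10k and was seen in all 29 CM and 135 TSF cells. Cxcl1 (log2 ratio 0.13) and Csf1 (-0.40) lay within 1.5-fold. Among adhesion and metastasis-linked genes, the secreted phosphoprotein Spp1 was past 1.5-fold higher (30.6 CP10k in CM, 59.8 CP10k in TSF) and the urokinase Plau and its receptor Plaur were past 1.5-fold lower (log2 ratios -0.73 and -0.77), with 11 of 14 within the limit.

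The 15 transcripts with the highest mean CP10k over both libraries included Gm42418, Fth1, S100a6, Rpl41, Lgals1, Malat1, Ppia and Vim, although single libraries ranked them differently (Spp1, not among the 15, had a higher mean in TSF than Vim), with 5' UMIs counted per transcript and not divided by length. Of these Fth1, which stores iron, had 83.1 CP10k in CM and 134 CP10k in TSF (log2 ratio 0.69), and the actin gene Actg1 had 67.3 CP10k in CM and 33.3 CP10k in TSF (log2 ratio -0.99).

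Many defining markers of other lung cells were at 0 in the cancer cells, and others were seen in a few cells. Sftpc, Sftpb and Lamp3 of alveolar type 2 cells, Lyz2, Csf1r and Adgre1 of macrophages, Cd3d, Cd8a and Nkg7 of T and NK cells, Ly6g of neutrophils and Hba-a1 of red cells were at 0 in both libraries after the authors' ambient correction. Of the same lists, Ly6c2 was seen in 2 CM and 20 TSF cells and Cd68 in 1 and 11, while Cxcr2, Csf3r and S100a9 were at 0 in CM and seen in 10, 7 and 4 TSF cells. Summed means of the neutrophil list were 0 CP10k in CM and 1.07 CP10k in TSF, of the macrophage and monocyte list 0.0900 and 0.134 CP10k, of the T and NK list 0.00935 and 0.00893 CP10k, of the alveolar type 1 list 0.108 and 0.224 CP10k, and of the endothelial list 0.172 and 0.466 CP10k. The fibroblast and pericyte list summed to 7.68 CP10k in both libraries and was mostly Mgp, a matrix protein that was seen in 14 CM and 114 TSF cells, while Pdgfra was seen in 13 and 63 cells. Mgp showed a higher share of cells in TSF and a lower mean (7.18 CP10k in CM, 6.48 CP10k in TSF).

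A mean over a known number of cells with known UMI totals fixes which cell held the UMIs of a rare gene. Multiplied by the number of cells, a mean CP10k is a sum of whole UMIs times 10000 over each cell's total, and no totals repeated within a library. All 1373 CM genes and 1686 TSF genes seen in 1 cell were solved to 1 cell and a whole number of UMIs, within 1e-06 UMIs. All 764 and 730 genes seen in 2 cells were solved too, within 1e-10 of the CP10k sum. The values are UMIs after the authors' ambient correction. A CM cell held a median of 45 genes seen in no other CM cancer cell and a TSF cell a median of 9, and these numbers depend on how many cells each library has.

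In a few barcodes the recovered UMIs were those of other lung cell types. A TSF cell with 35278 UMIs held 29 UMIs of Ager, 6 of Akap5 and 1 of Pdpn, which mark alveolar type 1 cells, and 19 of Sftpd, a surfactant gene of alveolar type 2 cells. It also held 88 genes seen in no other TSF cancer cell. A TSF cell with 33169 UMIs held 91 UMIs of the neutrophil gene S100a8 and 5 of Retnlg, and 1 with 34924 UMIs held 50 and 2. Those 2 cells carried every S100a8 UMI of the TSF cancer cells. A TSF cell with 33039 UMIs held 12 UMIs of Col3a1, a fibroblast collagen, together with 12 of Ereg, 9 of Ptgis and 8 of Dkk2. A TSF cell with 37667 UMIs held 4 UMIs of Cd79a and 1 of Ms4a1, both B cell genes. In CM, a cell with 21434 UMIs held 7 UMIs of the club cell gene Scgb1a1 and a cell with 32335 UMIs held 5 of Dcn.

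With a limit of 5 UMIs over the markers of 1 other type, set after these values were seen, such barcodes made up 6.90% of the CM cells (2 of 29, interval 0.846 to 22.8%) and 3.60% of the TSF cells (5 of 139, interval 1.18 to 8.19%). Both shares are lower limits, since markers seen in more than 2 cells could not be placed, among them S100a9 (4 TSF cells), Inmt (9 TSF cells) and Dcn in TSF (16 cells). This leaves out more markers among 139 cells than among 29, so the 2 shares are not compared. The markers made up 0.0133 to 0.289% of the UMIs of these cells in TSF. The authors removed no doublets among cancer cells, and whether these barcodes held 2 cells was not tested. The same calculation showed how a shallow cell weighs in a mean. Sftpa1 had 1 UMI in the CM cell of 973 UMIs and 1 in a CM cell of 39045 UMIs, and 1 UMI in the former adds 0.354 CP10k to the CM mean, against 0.0125 CP10k for a CM cell of median depth.

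**Figure D5:**
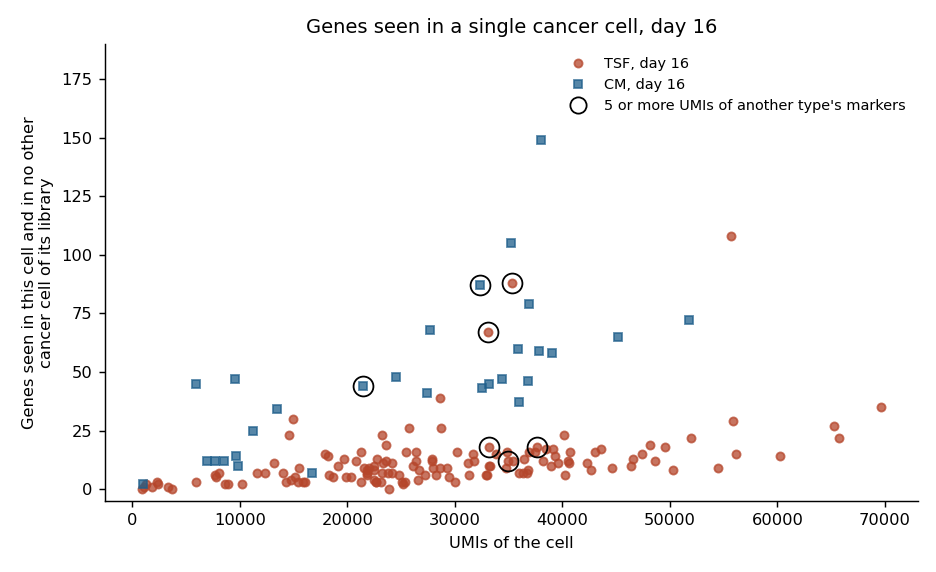
Number of genes seen in a cell and in no other cancer cell of its library against the UMIs of that cell, for CM (29 cells, blue squares) and TSF (139 cells, red circles) of day 16. Rings mark the 5 TSF and 2 CM cells with at least 5 UMIs of another cell type's markers among genes seen in at most 2 cells, so other cells may reach that limit, and the ringed TSF cell with 88 such genes is the one with 29 UMIs of Ager.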

How the data were processed

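Reads of 5' single-cell libraries were mapped by the authors with Cell Ranger to mm10 (GRCm38.p6) with a CD90.1 sequence added, and counts were corrected for ambient RNA with a customised SoupX. Cells with over 10% mitochondrial RNA, under 800 UMIs or under 200 genes were removed by the authors, and clusters were annotated by hand. The deposited cell table gives UMI counts, gene counts, the percent of mitochondrial UMIs and the cell type of each cell. It also held 2 libraries without a sample in the labels, which were not used. The deposited gene table for cancer cells of day 16 gives the authors' mean CP10k (a normalized signal, UMIs per 10000 UMIs of a cell) and the count of cells with a UMI. Its fold changes, p-values, q-values and ranking metric, and the deposited enrichment scores, hold the authors' own comparisons and were not used. No matrix of single cells was used here.

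Ratios were recomputed as log2 of mean CP10k + 1, for genes with a UMI in 10% or more of the cancer cells of CM or TSF, and a gene was counted past 1.5-fold. Shares have exact Clopper-Pearson intervals at 95% and ratios of shares exact conditional intervals, from pooled counts for TSF libraries a and b. A share of 0 allows 3 counts of the total. With 1 sample per group no test of a difference was possible. Rare genes were solved to whole UMIs of 1 or 2 cells (at most 400 UMIs per cell) from the means and the cells' UMI totals. The counts of genes past 1.5-fold and the solving of rare genes were tested on simulated data, and the other calculations were not. Gene coordinates came from GENCODE M21 (23729 of 23771 genes matched), promoters from RefSeq. The cells and gene lists were chosen with earlier results of these data known. Named genes were the markers, list members, the 12 largest and 12 smallest log2 ratios among genes in 25% or more of the cells of CM or TSF, the 15 highest means and the 6 largest share differences in each direction. Ereg, Ptgis, Dkk2 and the genes solved to single cells were named after their values were seen. Some genes that this rule names are not reported here. Python 3.11.15, pandas 2.3.3, numpy 2.4.6 and scipy 1.17.1 were used.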

Additional observations from a re-analysis of the deposited data

Results flagged for a closer look

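In 3 measures of the cancer cells, TSF and CM differed in opposite directions at the 2 days, in both TSF libraries of day 11. The difference between days was not tested, since each group had 1 sample and CM of day 11 held 6 cancer cells. The median UMI count was higher in TSF than in CM by 10114 at day 11, while TSF minus CM was -1064 at day 16, with -11178 between the days. The median number of genes was 594.5 higher in TSF at day 11, while TSF minus CM was -429 at day 16, with -1023.5 between the days. The median percentage of mitochondrial UMIs in TSF minus CM was -0.14 at day 11 and 0.28 at day 16, with 0.41 percentage points between the days. Among cancer cells with at least 10000 UMIs, the day 16 medians were 1.98958% in CM and 1.99033% in TSF, so the day 16 difference nearly vanished there.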

How the results depend on the processing

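With non-immune cells as the denominator, the share of cancer cells at day 16 over day 11 in TSF was 5.10 in place of 3.73. The 4 share ratios otherwise kept their direction and stayed within their intervals, and leaving out TSF library a or b gave 3.90 to 5.58 for TSF over CM at day 11 and 3.17 to 4.54 for day 16 over day 11 in TSF. Without the 7 cells found to hold markers of another type, an alternative chosen after seeing the data, TSF over CM at day 16 was 3.62. Under 5000 UMIs lay 0% of cancer cells in CM of day 11 and 3.45% in CM of day 16, and under 20000 UMIs 15.6% in TSF of day 11 and 25.2% in TSF of day 16. A pseudocount of 0.1 gave 748 genes higher and 1762 lower past 1.5-fold, because it shrinks low means less. Rescaling without ribosomal protein genes gave 117 higher and 224 lower, and the share of higher calls among all calls stayed between 27.3% and 34.3% in every setting. The medians of the 10 lists of cancer cell genes kept their sign under this pseudocount, the stricter filter and that rescaling. The medians of UMIs, genes and mitochondrial percentage stayed within the 95% interval of the median over cells in each alternative run. No paired analysis was possible because every group had 1 sample. Precision is limited by 6 and 29 CM cells, by 1 sample per group and by cells of unequal depth.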

Other observations

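Slpi and Wfdc2 lie in the locus of whey acidic protein inhibitors on mouse chromosome 2, 173317 bases apart, and the genes between them did not share their difference. Sdc4, a heparan sulfate proteoglycan, had a ratio of means (TSF over CM) of 1.42, Sys1 of 0.864, Dbndd2 of 0.895 and Pigt of 1.03, against 4.62 for Slpi and 3.01 for Wfdc2. Other inhibitor genes of the locus were nearly silent in the cancer cells: Wfdc5, Wfdc15a, Wfdc15b, Eppin and Wfdc8 had no UMI in either library, Wfdc12 was seen in 2 TSF cells and Wfdc3 in 1 TSF cell. These genes were chosen after the values of Slpi and Wfdc2 were seen, and none of the differences was tested.

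Some genes were confined to single cancer cells of the CM library of day 16. The acute phase gene Saa3 had 11 UMIs in a cell with 36875 UMIs and was seen in no other CM cancer cell, and the serpin gene Serpind1 had 7 UMIs in a cell with 35268 UMIs. The chemokine Ccl2 had 4 UMIs, all in a cell with 45132 UMIs. A cell with 38024 UMIs held 149 genes that no other CM cancer cell held, which made up 0.526% of its UMIs.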
